A study of Arabidopsis thaliana with 2 samples.

Results

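The 10 genes described here act in brassinosteroid synthesis, inactivation and signalling in Arabidopsis thaliana. Each was looked up by its locus identifier, and all 10 were listed in at least 1 of the deposited files, out of 20029 genes listed in either. Transcripts had been measured in plants of the accession Ws-0, at the globular stage of the embryo, in the embryo proper (EP), which forms the seedling, and in the suspensor, the stalk that joins it to the maternal seed tissue. Laser capture on paraffin sections isolated each region, in seeds chosen by the diameter of the embryo proper, and each gave 1 library, so no test was possible and the values describe these 2 libraries alone. Neither group carried a mutation, transgene or chemical treatment in the labels.

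Brassinosteroids are plant steroid hormones made from the sterol campesterol, and mutants that lack them are dwarfs. The steroid reductase DET2 and cytochromes P450 of the families that include DWF4 and CPD build the active hormones castasterone and brassinolide, and BAS1 inactivates them. The hormone binds the receptor kinase BRI1 and its SERK co-receptors at the cell surface. Cytoplasmic kinases (BSK) and the phosphatase BSU1 then act to inhibit the GSK3-like kinase BIN2. That frees BZR1, BES1 and their relatives to bind promoters, where they also repress genes of hormone synthesis.

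Reads assigned to genes numbered 12696351 in the EP library and 7182886 in the suspensor library, as recovered from the deposited RPKM (reads per 1000000 reads and per kilobase of a gene), and the median listed gene had 145 and 87.9 reads. The range given with a fold is its 95% interval, exact binomial, from these reads. It covers counting error only, since the cDNA had been amplified and the protocol names no molecular identifiers. Of the measured EP markers, 7 of 8 were 2-fold or more higher in the EP library, beside 23.1% of all genes. All 5 suspensor markers were so in the suspensor library, beside 29.3% of all genes. The marker lists were chosen with earlier results of these data known, so their counts cannot check the labels. Of the endosperm markers, 9 of 9 measured were 2-fold or more higher in the suspensor library, with sums of 386 RPKM there and 26.0 in EP. Of the seed coat markers, 9 of 11 measured were so and 10 were higher by any amount, with sums of 102 and 7.50 RPKM. The share of all genes 2-fold higher in the suspensor library was 29.3%. Measured means at least 1 RPKM in either library, so a marker could enter these counts only through the library where it was high. The endosperm markers PHE1 and YUC10, below that level in both, were higher in EP, at 0.936 and 0.546 RPKM against 0.828 and 0.121, on at most 10 reads. In the EP library the seed coat genes BAN, TT2, TT8 and TT10 were not listed, and TT16 was listed in neither library. DRNL and STM of the EP list were not listed in the suspensor library, although STM had only 2 reads in EP. In such bulk samples fewer cells of a type and less RNA per cell cannot be told apart.

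The hormone synthesis gene DWF4, the receptor gene BRI1, the late synthesis gene BR6OX2 and the transcription factor gene BZR1 were at least 2-fold higher in the EP library, and the early synthesis gene DET2 differed by at least 2-fold in the other direction. These counts use log2(RPKM + 1), a scale that understates the difference of low genes, and cover the 8 members that reached 1 RPKM in either library. BR6OX1 and CYP90D1 were below that level in both. Of the 8, 4 passed 2-fold towards EP, beside 23.1% of all 16975 genes at that level, and 1 passed it towards the suspensor, beside 29.3%. At 4-fold, 3 members were higher in EP and 0 in the suspensor, beside 8.32% and 12.3% of all genes. The median log2 ratio, suspensor over EP, was −0.99 over these members and 0.13 over all genes, and the members ran from −3.89 to 1.45. The members were chosen with earlier results of these data known, so these comparisons with all genes are descriptions only.

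**Figure D1:**
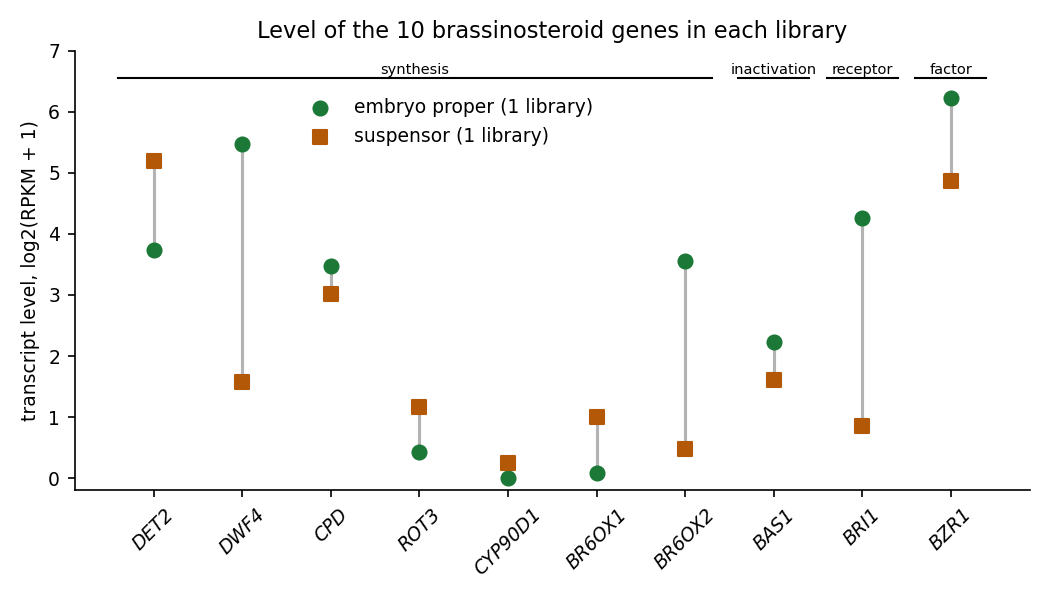
Level of each member as log2(RPKM + 1) in the EP library (circles) and the suspensor library (squares), ordered by role, with a line joining the 2 values and no error bar because each region has 1 library. DWF4, BR6OX2 and BRI1 show the long gaps, with EP above, and DET2 shows the suspensor above, at 35.4 against 12.4 RPKM.

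DET2 (AT2G38050), the reductase of an early step, stood at 12.4 RPKM in EP and 35.4 in the suspensor. It was 2.87-fold higher in the suspensor (2.28 to 3.61, from 124 and 201 reads), at the percentile 80.1 of the log2 ratios of all genes. It was the most abundant synthesis gene of the list in the suspensor and second to DWF4 in EP. Markers of endosperm and seed coat moved with it, with the sums given above, and their part in this difference was not tested.

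DWF4 (AT3G50660), the side-chain hydroxylase of the rate-limiting step, went the other way. It stood at 43.4 RPKM from 849 reads in EP and 1.99 RPKM from 22 reads in the suspensor, a 21.8-fold difference (14.3 to 35.0). Its rank by level was 3306 among the 18071 genes listed in EP and 14399 among the 18672 listed in the suspensor. Per length, DWF4 was thus 3.51 times as abundant as DET2 in EP, whereas DET2 was 17.9 times as abundant as DWF4 in the suspensor. The log2 ratio of DWF4 lay at the percentile 1.23 of all genes.

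CPD (AT5G05690), the cytochrome P450 whose mutant is a dwarf that behaves in the dark as if in light, differed far less. It stood at 10.1 RPKM in EP and 7.06 in the suspensor, 1.44-fold higher in EP (1.09 to 1.92), at the percentile 35.3. DWF4 was therefore 4.27 times as abundant as CPD in EP and 0.281 times as abundant in the suspensor.

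ROT3 (AT4G36380) and CYP90D1 (AT3G13730), a pair of related side-chain hydroxylases that act redundantly, were near the limit of detection in both libraries. ROT3 stood at 0.350 RPKM from 7 reads in EP and 1.24 RPKM from 14 reads in the suspensor, 3.53-fold higher in the suspensor (1.34 to 10.3). On the log2(RPKM + 1) scale this came to 0.73, below the 2-fold threshold. CYP90D1 was not listed in EP and rested on 2 reads, at 0.188 RPKM, in the suspensor. A count of 0 in EP allows up to 0.160 RPKM of CYP90D1, at a floor of 3 reads, so a difference was not detectable at this depth.

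The last oxidation steps are carried out by 2 related enzymes, BR6OX1 (AT5G38970) and BR6OX2 (AT3G30180). Both make castasterone, and BR6OX2 also converts it to brassinolide. BR6OX2 stood at 10.7 RPKM from 191 reads in EP and 0.398 RPKM from 4 reads in the suspensor, 27.0-fold higher in EP (10.4 to 100.2). BR6OX1 rested on 1 read in EP, at 0.056 RPKM, and on 10 reads in the suspensor, at 0.995 RPKM, a 17.8-fold ratio whose counting interval ran from 2.51 to 767. The pair thus had opposite directions by RPKM. BR6OX1 was below 1 RPKM in both libraries, however, and its log2 ratio on the RPKM + 1 scale, 0.92, was under 2-fold. BR6OX2 made up 99.5% of their summed RPKM in EP and 28.6% in the suspensor, where the sum was 1.39 RPKM against 10.8. No window of 50 bases in the coding sequence of either gene occurred in that of another gene.

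BAS1 (AT2G26710), which inactivates castasterone and brassinolide by hydroxylation, was low in both libraries. It stood at 3.67 RPKM in EP and 2.05 in the suspensor, 1.79-fold higher in EP (1.11 to 3.01) and below the 2-fold threshold. DWF4 and BRI1 differed by more than 20-fold in the same direction.

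BRI1 (AT4G39400), the main hormone receptor, stood at 18.2 RPKM from 829 reads in EP and 0.813 RPKM from 21 reads in the suspensor. The difference was 22.4-fold (14.5 to 36.3), close in size to that of DWF4, and its log2 ratio of −3.40 lay at the percentile 1.94. BZR1 (AT1G75080), the transcription factor at the end of the pathway, was the most abundant member in EP. It stood at 74.1 RPKM there and 28.1 RPKM in the suspensor, second to DET2 in that library. It was 2.64-fold higher in EP (2.27 to 3.09), a smaller difference than that of the receptor gene.

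**Figure D2:**
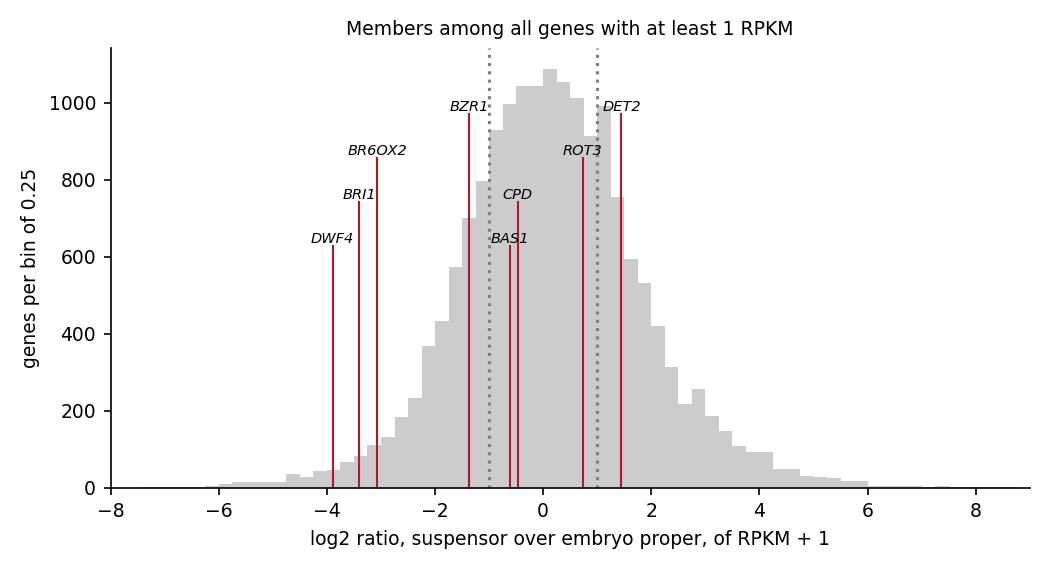
Histogram of the log2 ratio of suspensor to embryo proper, on the RPKM + 1 scale, for all 16975 genes that reached 1 RPKM in either library, with the 8 members at that level marked by red lines of arbitrary height and 2-fold by dotted lines. DWF4, BRI1 and BR6OX2 lie in the left tail, at −3.89, −3.40 and −3.07, and CPD, BAS1 and ROT3 lie between the dotted lines.

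The promoters of the 4 members that were higher in EP are shown because BZR1 and its relatives bind promoters of the pathway's own genes. Each is the 250 bases before the annotated gene start, 5′ to 3′ on the gene's strand, in the RefSeq reference TAIR10.1 of the accession Columbia. DWF4 and BR6OX2 lie on chromosome 3, on the minus and plus strands, BRI1 on the plus strand of chromosome 4 and BZR1 on the plus strand of chromosome 1. Capitals mark matches on either strand to CGTGTG or CGTGCG, both known as brassinosteroid response elements, and to the G-box CACGTG.
DWF4: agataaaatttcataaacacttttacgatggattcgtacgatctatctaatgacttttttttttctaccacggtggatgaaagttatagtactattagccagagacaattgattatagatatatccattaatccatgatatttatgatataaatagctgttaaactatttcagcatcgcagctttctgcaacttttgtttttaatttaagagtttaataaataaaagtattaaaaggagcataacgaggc
BR6OX2: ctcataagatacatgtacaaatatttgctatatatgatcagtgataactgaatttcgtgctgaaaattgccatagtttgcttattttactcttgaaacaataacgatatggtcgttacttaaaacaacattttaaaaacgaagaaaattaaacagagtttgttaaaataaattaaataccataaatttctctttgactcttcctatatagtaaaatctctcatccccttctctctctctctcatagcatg
BRI1: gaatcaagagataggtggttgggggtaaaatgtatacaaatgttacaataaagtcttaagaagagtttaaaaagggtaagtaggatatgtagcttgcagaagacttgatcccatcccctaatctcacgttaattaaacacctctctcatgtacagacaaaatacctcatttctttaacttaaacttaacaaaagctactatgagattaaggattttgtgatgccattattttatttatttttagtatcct
BZR1: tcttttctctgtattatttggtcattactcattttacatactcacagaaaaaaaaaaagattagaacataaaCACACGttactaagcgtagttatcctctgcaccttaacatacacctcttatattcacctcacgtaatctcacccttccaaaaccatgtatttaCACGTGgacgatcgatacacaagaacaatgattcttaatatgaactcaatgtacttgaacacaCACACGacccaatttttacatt

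The BZR1 promoter held CGTGTG at 2 positions, both on the opposite strand, starting 178 and 22 bases before the gene start, and a G-box starting 85 bases before it. The other 9 members held none of the 3 motifs in this window, which says only that these letters are not there. Of 27443 promoters of nuclear protein-coding genes, 5.37% held CGTGTG, 1.57% CGTGCG and 6.49% CACGTG. The looser E-box CANNTG, which includes the G-box, was in 55.3% of promoters and in 9 of the 10 members. Over the wider set of 88 pathway genes described below, which includes the members, it was in 52, or 59.1%, near the share of all promoters. A match is a description and not a binding site.

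Within the BZR family, BES1 showed a sharper split than BZR1 itself. BES1 (AT1G19350), the closest relative of BZR1, was the most abundant gene of all the pathway lists in EP, at 267 RPKM from 3644 reads. It stood at 3.24 RPKM from 25 reads in the suspensor, an 82.5-fold difference (55.8 to 128). BEH3 (AT4G18890), another family member, stood at 13.2 RPKM in EP. In the suspensor it had 1 read, and the ratio of 80.7 had a counting interval from 14.3 to 3218. BEH2 (AT4G36780) was at 20.4 and 24.2 RPKM, a 1.19-fold difference whose interval of 0.950 to 1.48 includes equal levels. BEH1 (AT3G50750) was at 1.89 and 1.17 RPKM. BEH4 (AT1G78700) went the other way, at 0.965 RPKM in EP and 3.27 in the suspensor. It was 3.39-fold higher in the suspensor (1.62 to 7.47), from 12 and 23 reads.

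The make-up of the family therefore differed between the libraries. Of its summed 378 RPKM in EP, BES1 made up 70.7% and BZR1 19.6%, and of 60.1 RPKM in the suspensor BZR1 made up 46.7%, BEH2 40.3% and BES1 5.38%. BES1 and BZR1 share stretches of sequence, with 2.15% and 2.29% of their 50-base coding windows found in the other, so few reads of that length could be assigned to the wrong gene. Of the 12 genes in the list of the family and its partners, 3 passed 2-fold towards EP, beside 23.1% of all genes. In the other direction 1 passed it, beside 29.3%. The median log2 ratio was 0.13, as it was over all genes. The partner genes BIM1, BIM2, BIM3, IWS1, REF6 and ELF6 were all under 2-fold, and the most abundant of them, the transcription elongation factor IWS1 (AT1G32130), stood at 67.3 and 119 RPKM.

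**Figure D3:**
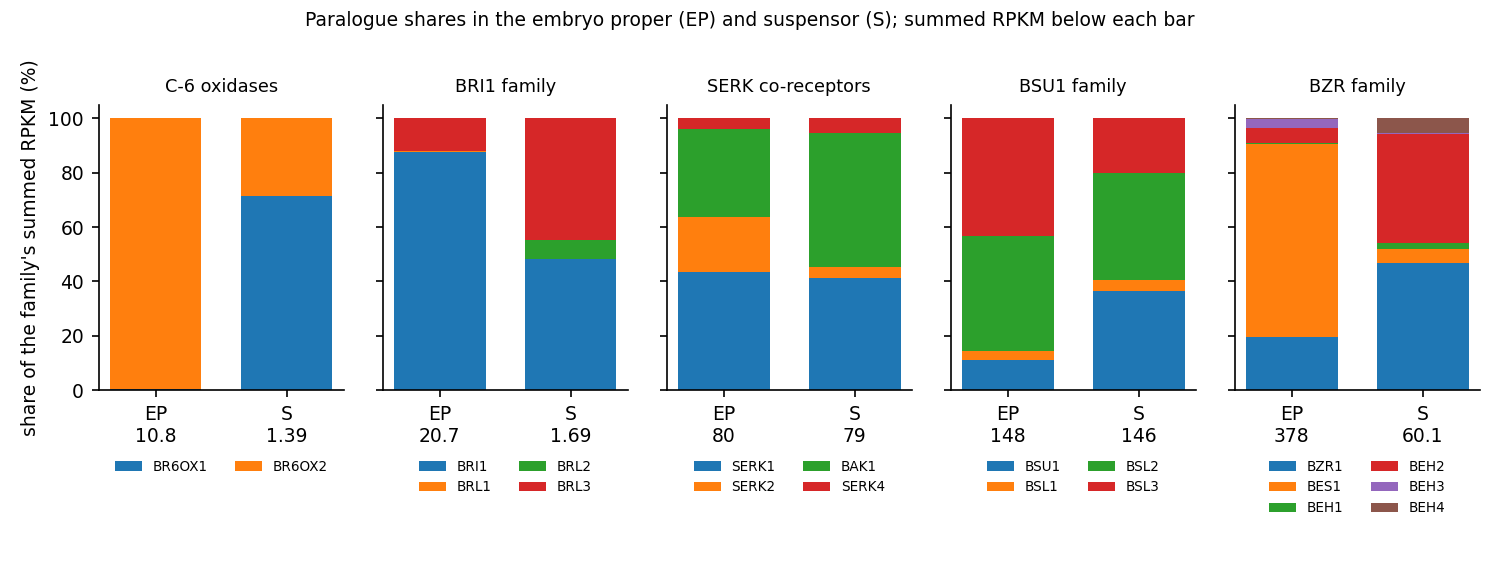
Share of each paralogue in the summed RPKM of its family in EP and the suspensor (S), with the summed RPKM under each bar. The BZR family goes from 70.7% BES1 in EP to 46.7% BZR1 in the suspensor, with sums of 378 and 60.1 RPKM. The SERK and BSU1 families have nearly equal sums in both, but their shares differ too. SERK2 goes from 20.5% in EP to 3.92% in the suspensor, and BSU1 from 11.0% to 36.4%.

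At the cell surface, BRI1 was the main receptor gene of its family in EP, with 87.7% of the 20.7 RPKM summed over BRI1, BRL1, BRL2 and BRL3. In the suspensor the sum was 1.69 RPKM, of which BRI1 made up 48.1% and BRL3 44.7%, shares that rest on 21 and 19 reads. BRL3 (AT3G13380), a receptor that binds the hormone in vascular tissue, was at 2.48 and 0.756 RPKM. By RPKM it was 3.27-fold higher in EP (2.00 to 5.65), so both genes were lower in the suspensor. BRL1 and BRL2 rested on at most 3 reads in either library.

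The co-receptor genes had a different pattern from the receptor gene, with summed levels of 80.0 RPKM in EP and 79.0 in the suspensor. SERK1 (AT1G71830) stood at 34.7 and 32.7 RPKM and BAK1 (AT4G33430) at 25.7 and 38.9 RPKM. SERK2 (AT1G34210) was the exception, at 16.4 RPKM in EP and 3.10 in the suspensor, 5.29-fold higher in EP (3.84 to 7.44). Of 6 measured genes of the receptor list, 2 were at least 2-fold higher in EP, BRI1 and SERK2, and 0 in the suspensor. Over all genes these shares were 23.1% and 29.3%. The inhibitor gene BKI1, whose product holds the receptor inactive, rested on 6 reads in EP and was not listed in the suspensor.

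Among the cytoplasmic kinases that BRI1 phosphorylates and their relatives, 10 genes were measured. Of these, 3 passed 2-fold towards EP and 1 towards the suspensor, beside 23.1% and 29.3% of all genes. The median log2 ratio was −0.51, beside 0.13 for all genes. BSK2 (AT5G46570) stood at 44.8 and 11.4 RPKM, 3.95-fold higher in EP (3.26 to 4.82), and BSK5 (AT5G59010) at 15.7 and 4.83 RPKM. The third was BSK6 (AT3G54030), at 2.88 and 0.661 RPKM. BSK1 (AT4G35230), the founding member, was at 33.6 and 26.9 RPKM and BSK8 (AT5G41260) at 26.8 and 24.7 RPKM. The one gene in the other direction was SSP (AT2G17090), a family member that promotes suspensor formation through the YODA kinase cascade. It stood at 12.2 RPKM from 123 reads in the suspensor and was not listed in EP, at least 72.5-fold higher against a floor of 3 reads in the EP library.

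The phosphatases and GSK3-like kinases were present in both libraries. Of 10 measured genes, 2 were at least 2-fold higher in each, beside 23.1% and 29.3% of all genes towards EP and the suspensor, and the median log2 ratio was 0.07. These values leave out the kinase genes GSK1 (AT1G06390) and SKdZeta (AT2G30980), whose listed symbols disagreed with the reference. Both passed 2-fold towards EP, at log2 ratios of −1.16 and −1.17. BSU1 (AT1G03445), the phosphatase that acts on BIN2, was 3.23-fold higher in the suspensor (2.90 to 3.62), at 53.0 against 16.4 RPKM. Its relative BSL3 (AT2G27210) was 2.18-fold higher in EP (2.00 to 2.39), at 64.2 against 29.4 RPKM. Summed over the 4 genes of this family the levels were 148 and 146 RPKM. BIN2 (AT4G18710), the kinase that holds BZR1 and BES1 inactive, was low, at 6.40 RPKM in EP and 2.92 in the suspensor. SK13 (AT5G14640), another kinase of the GSK3 family, was the most abundant of the list in EP, at 85.2 RPKM against 37.0. ATB'ALPHA (AT5G03470), a subunit of the phosphatase PP2A, was at 5.02 and 11.5 RPKM, 2.29-fold higher in the suspensor by RPKM (1.74 to 3.02). Its log2 ratio of 1.05 fell under 2-fold in 4 of 9 alternatives, to as low as 0.72 with a pseudocount of 5 RPKM.

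Upstream of the hormone, 4 of 7 sterol genes on the route to campesterol passed 2-fold towards the suspensor, beside 29.3% of all genes, and 2 towards EP, beside 23.1%. The median log2 ratio was 1.25, beside 0.13 for all genes. SMT1 (AT5G13710), the first methyltransferase of the route, stood at 108 RPKM in EP and 257 in the suspensor, 2.39-fold higher in the suspensor (2.22 to 2.56). HYD1 (AT1G20050), the sterol isomerase, was 5.12-fold higher there (3.91 to 6.75), the reductase gene DWF5 (AT1G50430) 4.52-fold (3.90 to 5.22) and the desaturase gene STE1 (AT3G02580) 3.08-fold (2.21 to 4.33).

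DWF1 (AT3G19820), the reductase that completes campesterol, went the other way, at 169 RPKM in EP against 41.3, 4.10-fold higher in EP (3.73 to 4.51). FK (AT3G52940), a sterol reductase whose mutant has a disturbed embryo pattern, also did, at 38.8 against 15.9 RPKM. CYP51G1 (AT1G11680), the sterol demethylase, was at 50.3 and 48.9 RPKM. On the side branch to sitosterol, SMT2 (AT1G20330) was abundant in both libraries, at 153 and 190 RPKM, and SMT3 (AT1G76090) was 10.6-fold higher in the suspensor (7.74 to 14.8), at 35.5 against 3.35 RPKM. The markers of endosperm and seed coat moved with the sterol genes that were higher in the suspensor, and their part was not tested.

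Of the other genes of hormone inactivation, BEN1 (AT2G45400), a reductase-like protein, was the most abundant, at 24.8 and 29.6 RPKM. BIA1 (AT4G15400), an acyltransferase, was the 1 gene of 3 measured that was at least 2-fold higher in the suspensor, beside 29.3% of all genes. It stood at 1.28 RPKM from 12 reads there and was not listed in EP. The glycosyltransferase genes UGT73C5 and UGT73C6 were not listed in either library, and CYP72C1 and PIZ rested on at most 3 reads.

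Most genes known from seedlings to be induced by the hormone, or to act with those, were not detected. Of 13, 8 were not listed in either library and 3 were measured. Of the unlisted genes, PRE1, PRE5, PRE6, SAUR15 and ARL have short coding lengths, 270 to 408 bases. For these a floor of 3 reads in the suspensor library is 1.02 to 1.55 RPKM, so low levels could be missed. The share of unlisted genes over all annotated genes was not computed. Of the 3 measured, 1 passed 2-fold towards EP and 1 towards the suspensor, beside 23.1% and 29.3% of all genes. TCH4 (AT5G57560), a cell wall enzyme, was 2.69-fold higher in the suspensor (2.22 to 3.27), at 44.1 against 16.4 RPKM, and the expansin gene EXPA5 (AT3G29030) was at 20.4 RPKM in EP and 15.9 in the suspensor. PRE3 (AT1G74500), a small helix-loop-helix protein also known as a MONOPTEROS target, stood at 5.86 RPKM from 21 reads in EP and was not listed in the suspensor, at least 3.96-fold higher against a floor of 3 reads.

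Of 5 measured genes known from seedlings to be repressed by BZR1 or BES1, 2 were at least 2-fold higher in EP and 3 in the suspensor, beside 23.1% and 29.3% of all genes. GATA4 (AT3G60530), a GATA factor, stood at 41.9 RPKM in EP and 1.54 in the suspensor, 27.2-fold higher in EP (13.6 to 63.4). BRAVO (AT5G17800), a MYB factor of dividing root cells, was at 3.96 and 1.15 RPKM. MYBL2 (AT1G71030), a MYB repressor that also acts on flavonoid synthesis, stood at 30.8 RPKM from 130 reads in the suspensor and was not listed in EP, at least 76.6-fold higher. BRH1 (AT3G61460), a RING finger gene, was at 15.2 RPKM in the suspensor against 2.61, and IBH1, a helix-loop-helix inhibitor of growth, rested on 5 reads in the suspensor alone. The seed coat markers, many of which are flavonoid genes, were higher in the suspensor library beside MYBL2, with the sums given above, and their part was not tested.

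**Figure D4:**
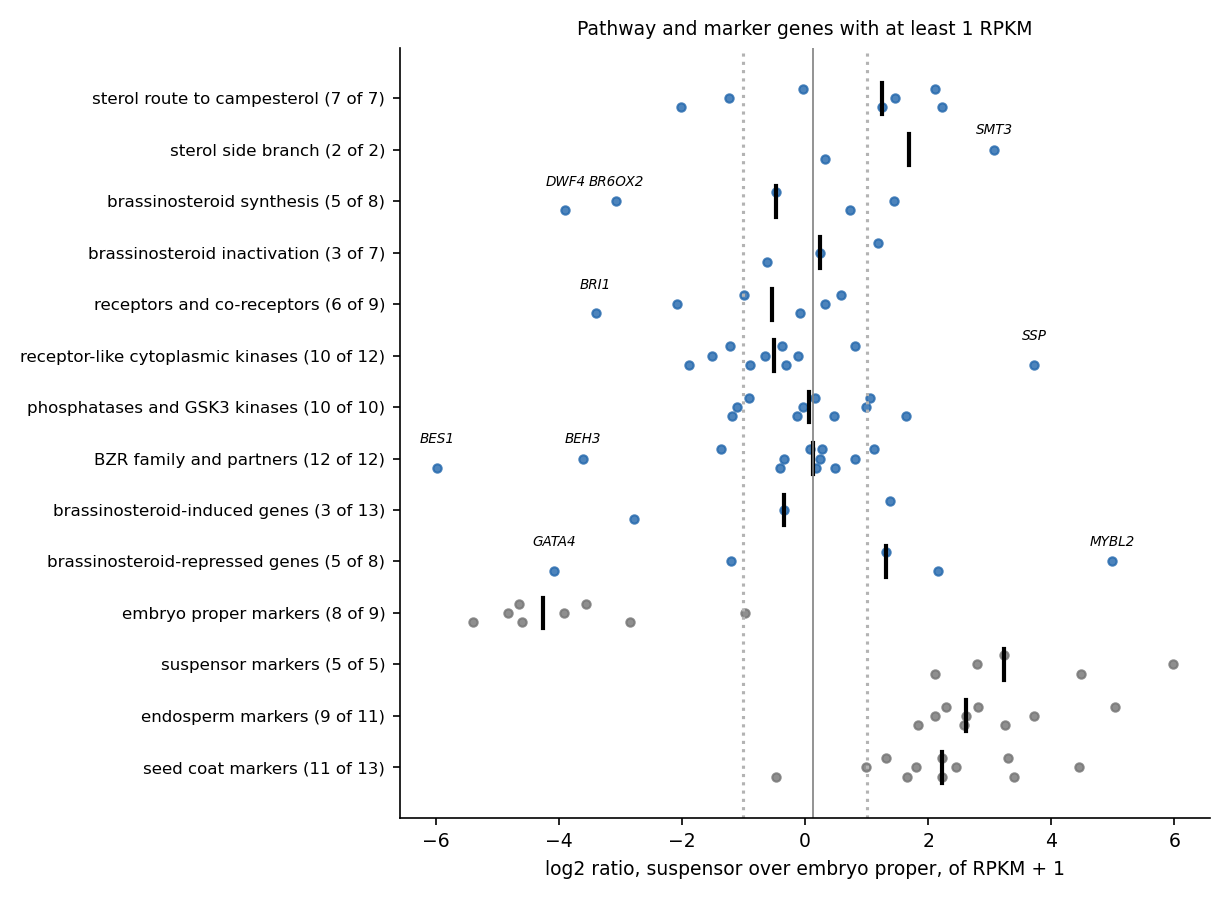
Log2 ratio of suspensor to embryo proper on the RPKM + 1 scale for each gene of the pathway lists (blue) and the marker lists (grey) that reached 1 RPKM in either library, with the number measured of those listed in brackets. Black bars are list medians, dotted lines 2-fold, the thin line the median of all genes at 0.13, points are spread vertically only for legibility, and BES1 is the leftmost of the pathway genes.

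Over all 88 pathway genes, 63 were measured, of which 17 passed 2-fold towards EP and 15 towards the suspensor. These shares lay near the 23.1% and 29.3% of all genes. The median over them was −0.04 on the log2 scale, beside 0.13 for all genes. Without the 10 members, 13 and 14 of 55 measured genes were 2-fold higher in EP and the suspensor. By Euclidean distance of log2(RPKM + 1) over the 2 libraries, the nuclear protein-coding genes nearest to DWF4 were ATMAP65-6 (AT2G01910), NUDT6 (AT2G04450) and AT2G23700, at 45.8, 41.5 and 42.5 RPKM in EP and 1.83, 1.80 and 2.23 in the suspensor. With 2 libraries such nearness says only that level and ratio are alike, and 38 genes lay within a distance of 0.5.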

How the data were processed

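Per the labels' protocols, seeds were fixed and embedded in paraffin, regions were captured by laser on sections of 5 or 7 μm from seeds with embryos 24 to 32 μm across, and 15 ng of total RNA per library was amplified before library construction and 15 cycles of PCR. How many seeds or plants a library holds is not stated in the labels. Per the file headers, the deposited unit is RPKM, and the files list genes above 0. RPKM is a share of the library, and the gene AT3G24250 alone took 5.11% of the embryo proper reads and 12.4% of the suspensor reads, which lowers all other values. The tools HTSeq 0.6.1 and HISAT2 2.0.6 and the build TAIR10 appear, without roles, in the submitters' processing notes. Whether counting used strand or reads with several matches is not given in sources used here.

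RefSeq's annotation of TAIR10.1 gave symbols and coding lengths. The files carry no positions and the assembly differs in name from theirs, so no coordinates are given. Reads were recovered from RPKM and the longest coding length, by a search for the library total at which low values (at least 0.2 RPKM, at most 15 reads) become whole; 96.7% and 97.0% of such values of single-model genes, in the embryo proper and the suspensor, then lay within 0.05 of a whole read. Unlisted genes counted as 0, with a floor of 3 reads for bounds. The search was tested on simulated data. The pathway comprised 88 genes in 10 lists; 3 further loci were dropped because symbol and reference disagreed. Named genes were the members, list genes at least 2-fold apart reaching 10 RPKM, each list's most abundant gene and the 3 nearest to DWF4; others are named where a small count or a family falls outside that rule, chosen after their values were seen. Members and lists were chosen with earlier results of these data known. Python 3.11.15, pandas 2.3.3 and SciPy 1.17.1 were used. Alternatives were other pseudocounts, filters, scalings, a threshold of 4-fold, and reads without a pseudocount.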

Additional observations from a re-analysis of the deposited data

How the results depend on the processing

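The count of members 2-fold higher in EP was 4 under 9 of 10 alternatives and 3 at 4-fold. The count for the suspensor, 1, became 2 under a pseudocount of 0.1 RPKM and with reads and no pseudocount, where ROT3 joined DET2, and 2 with the 10 most abundant genes left out of the total, where BR6OX1 did; it was 0 at 4-fold. Of the 63 measured among the 88 pathway genes, 9 passed 4-fold towards EP and 6 towards the suspensor, beside 8.32% and 12.3% of all genes. No log2 ratio changed sign among the 34 genes recomputed that were at least 2-fold apart (the called pathway genes, GSK1 and SKdZeta), but sizes moved with the pseudocount: over all settings the log2 ratio of DWF4 ran from −4.45 to −2.79, BRI1 from −4.48 to −1.995, BR6OX2 from −4.75 to −1.54, BES1 from −6.37 to −5.05, BEH3 from −6.33 to −1.81, MYBL2 from 2.84 to 8.27, SSP from 1.79 to 6.95 and DET2 from 1.22 to 1.62. Of the 34, 8 fell under 2-fold in at least 1 alternative. With a pseudocount of 5 RPKM these were BIA1 (0.33), BSK6 (−0.48), ATB'ALPHA (0.72), BEH4 (0.47), BRAVO (−0.54), IBH1 (0.37) and GSK1 (−0.95). Scaled to a sum of 1000000, BIA1 (0.93), ATB'ALPHA (0.95) and BEH4 (0.95) did too, and ATB'ALPHA also when centred (0.93) and, narrowly, when scaled by the upper quartile. The median of the synthesis list, −0.47, was 0.36 with no filter, −1.77 at 10 RPKM, −1.66 with each library scaled to a sum of 1000000 and 0.27 without the 10 most abundant genes, as the few genes passing the filter changed. The median of all genes, 0.13, was 0.30 without the 10 most abundant genes and 0.01 when centred; with the former, BSL3 was under 2-fold, at −0.94. BR6OX1, CYP90D1 and ROT3 are limited by depth. No paired analysis was possible because each region has 1 library, and no replicate could be left out.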

Other observations

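Of the 3 listed loci left out because their listed symbols disagreed with the reference, 2 encode kinases related to BIN2 and were named after their values were seen. Both passed 2-fold towards EP, and neither is in the counts of the phosphatase and kinase list or of the 88 pathway genes. GSK1 (AT1G06390) stood at 26.6 RPKM in EP and 11.4 in the suspensor, and SKdZeta (AT2G30980) at 56.0 and 24.4 RPKM, 2.34-fold (1.87 to 2.94) and 2.30-fold (1.98 to 2.68) higher in EP. BIN2 itself was 2.19-fold higher there by RPKM (1.39 to 3.59), although below 2-fold on the log2(RPKM + 1) scale.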
